A study of Mus musculus with 46 samples.

Results

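The genes described here encode 9 proteins classed as proteoglycans of the extracellular matrix. They were taken by name from an expression table of 53465 genes, and all 9 were found. No cut on measured values was used, but the list was chosen with earlier results of these data known. Small leucine-rich proteoglycans (SLRPs) made up 7 of them, namely Dcn (decorin), Bgn (biglycan) and Aspn (asporin) of class I, Lum (lumican), Fmod (fibromodulin) and Prelp (prolargin) of class II, and Ogn (osteoglycin, also called mimecan) of class III. The other 2 were large proteoglycans, Vcan (versican, which binds hyaluronan) and Hspg2 (perlecan, a heparan sulfate proteoglycan of basement membranes).

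In general, a proteoglycan is a core protein that carries glycosaminoglycan chains. These are long sulfated sugar polymers of the chondroitin, dermatan, heparan or keratan sulfate type. The members were listed by gene name, and whether the product of each carries such chains was not measured. SLRP cores bind fibrillar collagens and regulate the width and spacing of collagen fibrils, and decorin and biglycan also bind growth factors of the TGF-beta family. In the kidney, these genes are known as products of interstitial fibroblasts and pericytes, the PDGFRB-expressing stromal cells that lay down collagen in fibrosis, whereas perlecan is also made by endothelial and epithelial cells for their basement membranes.

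RNA was sequenced from cells sorted out of kidneys of male wild-type C57BL/6 mice aged 8 to 12 weeks, the genotype being WT in every group. Mice had sham surgery (Sham), unilateral ureteric obstruction (UUO), or obstruction followed by reimplantation of the ureter to relieve it (rUUO), with the rUUO mice culled 14 days after reversal. The study's methods name day 2 and day 7 of obstruction, but the sample labels used here do not say which day the UUO samples came from. The sorted populations were PDGFRB+ stromal cells (Sham, UUO and rUUO n = 4, 4 and 4), CD31+ endothelial cells (n = 4, 3 and 4), F4/80+ macrophages (n = 4, 4 and 3) and proximal tubular (PT) cells that bind the lectin LTL (LTL+, n = 3, 4 and 3). Values are FPKM (fragment counts scaled to the length of the gene and to the library's mapped total), a level per length, so levels can be set side by side between genes. Errors are SD over samples unless stated, and values of single samples are given in order of replicate number (1, 2, 4 and 6 for stromal rUUO).

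The sorts carried their own markers. Pdgfrb was at 212 ± 43.5 FPKM in Sham stromal samples and between 0.663 and 4.47 FPKM on average in the other Sham populations. In those stromal samples the endothelial marker Pecam1 averaged 7.20 FPKM, the macrophage marker Adgre1 0.83 FPKM and the PT marker Lrp2 6.54 FPKM. Not all markers of other cells were low there. The thick ascending limb marker Umod averaged 224 FPKM and the distal tubule marker Slc12a3 128 FPKM, and sums of the full marker lists are given below. Absolute depth is unknown from an FPKM table, but low values of short genes gave relative depths between 0.616 (rUUO replicate 2) and 1.34 over the stromal libraries. Mitochondrial genes took 34.0 to 45.8% of summed FPKM in Sham stromal samples, 21.5 to 26.4% in UUO and 20.2 to 25.9% in rUUO. Stromal Sham replicate 3 stood apart from the other 3 Sham samples in the members themselves, with Fmod 5.15 times their mean, Ogn 2.83 times, Hspg2 2.66 times, Dcn 2.43 times and Lum 2.22 times, while Vcan was at 1.10 times. Calls that changed when this sample was left out are given with and without it. Group means, shares, ratios, coefficients of variation and correlations include it unless stated.

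The SLRP genes lie in clusters in the mouse genome (GRCm38), and the members of a cluster did not all have the same level. On chromosome 10, Dcn (97479609 to 97518143, plus strand) is followed by Lum (97565128 to 97572703) after 46.98 kb, and then by Kera and Epyc. Kera, a cornea-rich SLRP next to Lum, averaged 0.125 FPKM or less in each stromal group. On chromosome 13, Aspn (49544443 to 49567565, plus strand) and Ogn (49608046 to 49624501, plus strand) lie either side of Omd, with Ecm2 before them. Prelp (133910304 to 133921414, minus strand) and Fmod (134037254 to 134048277, plus strand) lie 115.84 kb apart on chromosome 1. Bgn is on the X chromosome (73483602 to 73495933, plus strand), Vcan on chromosome 13 outside that cluster (89655312 to 89742509, minus strand) and Hspg2 on chromosome 4 (137468769 to 137570630, plus strand).

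Promoter sequences are shown for Bgn and Vcan, the members whose level fell after reversal in the comparison below, and for the chromosome 13 neighbours Aspn and Ogn. RefSeq promoters (GRCm38.p6) were matched for 7 of the 9 members, Dcn and Lum not among them, and the 120 bases before the start are printed 5′ to 3′ on the gene's strand. They run from chrX:73483481-73483600 for Bgn, chr13:89742513-89742632 (minus strand) for Vcan, chr13:49544323-49544442 for Aspn and chr13:49607895-49608014 for Ogn. Capitals mark every match to GGGCGG (the GC box) or to GGAATG (the M-CAT element) on either strand.
Bgn: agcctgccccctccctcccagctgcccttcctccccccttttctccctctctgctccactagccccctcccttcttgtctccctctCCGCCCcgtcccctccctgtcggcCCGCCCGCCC
Vcan: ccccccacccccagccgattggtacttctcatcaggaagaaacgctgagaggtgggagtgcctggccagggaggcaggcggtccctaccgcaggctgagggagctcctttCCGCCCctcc
Aspn: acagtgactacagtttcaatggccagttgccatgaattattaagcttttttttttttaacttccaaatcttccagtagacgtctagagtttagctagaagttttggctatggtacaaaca
Ogn: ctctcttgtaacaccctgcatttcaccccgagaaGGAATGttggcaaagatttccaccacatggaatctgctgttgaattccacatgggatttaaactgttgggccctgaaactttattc

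Over the 250 bases before the start, the promoters of Bgn, Vcan and Hspg2 held 64.4%, 62.4% and 70.0% G and C, against a median of 52.4% over 32851 mouse promoters, and those of Aspn and Ogn held 30.0% and 42.0%. Fmod was at 51.2% and Prelp at 55.6%. The GC box occurred 3 times in Bgn, 2 times in Vcan and 5 times in Hspg2, overlapping matches counted, and in none of the other 4, while 32.7% of all promoters held it at least once. TATAAA occurred 2 times in Aspn and 2 times in Ogn only (12.4% of all promoters), and GGAATG occurred once, in Ogn (12.6%). TGANTCA (AP-1 element, 6.75% of all promoters), CACGTG (E-box, 6.02%) and CAGACA (an element bound by SMAD proteins, 17.1%) had no match in these windows of the 7 members. These matches are letters in a window and were not tested for binding.

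In Sham stromal cells the members spanned a wide range of levels. Biglycan was highest at 932 ± 101 FPKM, followed by decorin at 565 ± 306 FPKM, which overlapped it because Sham replicate 3 reached 1011 FPKM. Both were among the most abundant transcripts outside the mitochondrial genome, Bgn at rank 19 and Dcn at rank 44 of those genes. Prelp (102 ± 28.7 FPKM), Fmod (72.6 ± 74.3 FPKM), Ogn (59.4 ± 38.1 FPKM), Lum (55.3 ± 26.7 FPKM) and Hspg2 (43.4 ± 29.3 FPKM) formed a middle group in which each neighbour's range overlapped the next. Without Sham replicate 3 the means of Prelp, Fmod, Ogn, Lum and Hspg2 were 88.4, 35.6, 40.7, 42.3 and 30.7 FPKM, so the order of Fmod, Ogn and Lum rests on that sample. Vcan followed at 17.9 ± 10.7 FPKM, with a range that overlapped that of Hspg2, and Aspn was lowest at 5.09 ± 1.91 FPKM, below the lowest Vcan sample. The sum over the 9 members was 1852 ± 580 FPKM in Sham, 8015 ± 1300 FPKM in UUO and 5954 ± 213 FPKM in rUUO.

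**Figure D1:**
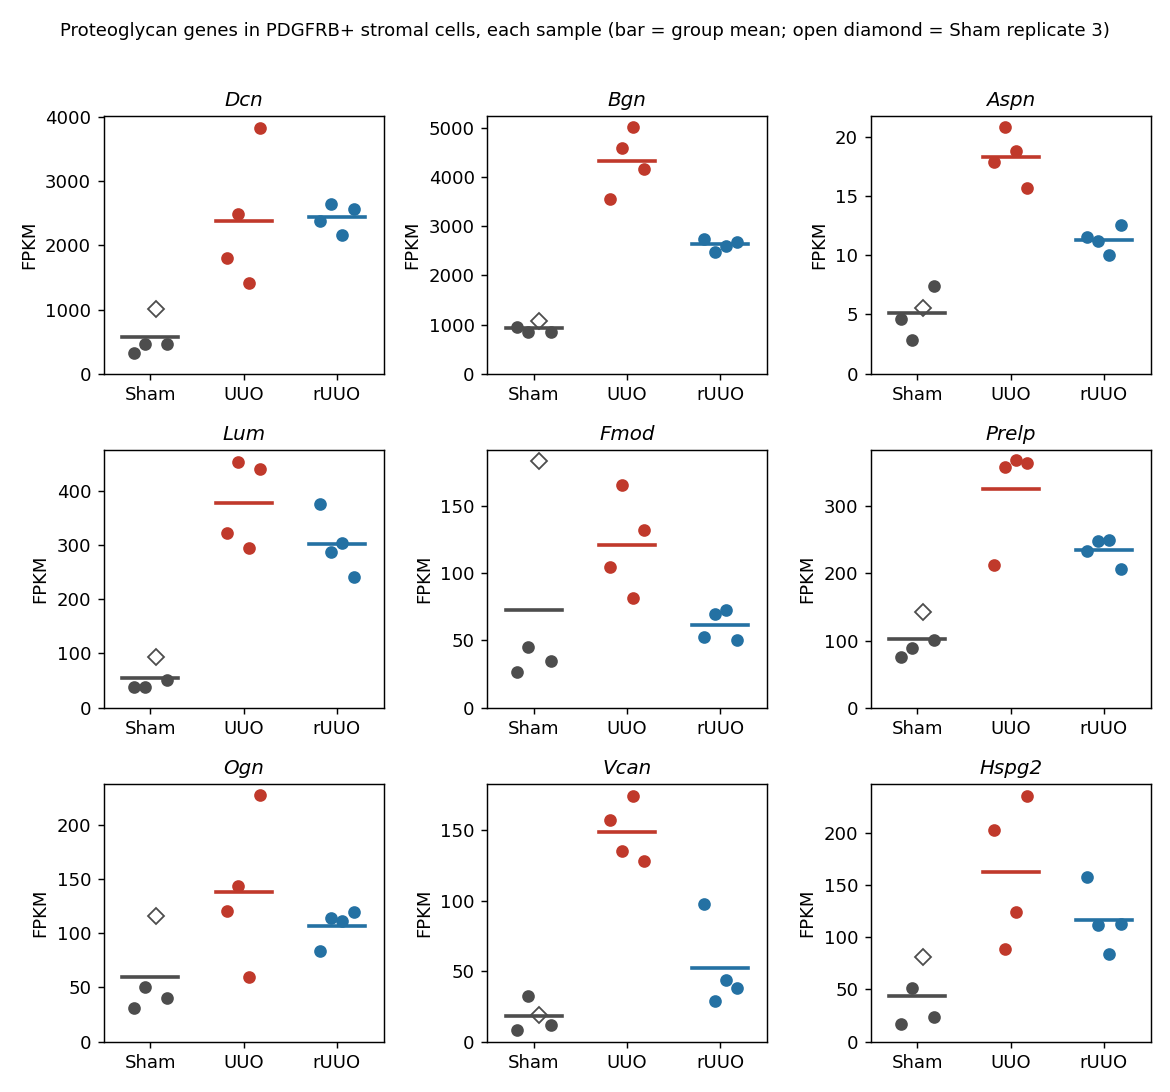
FPKM of each of the 9 members (1 panel each, linear axis from 0) in every PDGFRB+ stromal sample by surgery, with points for samples, horizontal bars for group means and an open diamond for Sham replicate 3. Every UUO sample lies above every Sham sample for 7 members, and Sham replicate 3 is the high Sham point of Fmod (183 FPKM) and Ogn (115 FPKM).

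The first comparison asked what obstruction did to these transcripts in stromal cells. Of the 9 members 8 rose from Sham to UUO, against 13.4% of the 14033 genes tested that rose, and only Fmod did not pass. The largest changes on the log2(FPKM + 1) scale were in Vcan (3.15) and Lum (2.83), and the smallest called change was in Ogn (1.23). The median change over the 9 members was 2.03, beside −0.07 over all genes tested. A change on this scale understates the fold of a gene at a low level such as Aspn. All 9 members passed the filter on low values (1 FPKM or more on average across the 12 stromal samples), tests were made with limma over all genes with Benjamini-Hochberg adjustment, and called means an adjusted p under 0.05. UUO samples lay above every Sham sample for 7 of 9 members, all but Fmod and Ogn, as they did for 13.2% of all genes. When Sham replicate 3, picked out by its high member values, was left out, they did so for 9 of 9 members. The share of all genes was not computed without that sample, and with fewer Sham samples it can only be the same or higher. In bulk samples such as these, fewer cells of a type and less RNA per cell cannot be told apart.

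Decorin, a collagen-binding SLRP that also binds TGF-beta, was at 314, 466, 1011 and 467 FPKM in the Sham samples, at 1801, 2489, 1414 and 3838 FPKM in UUO and at 2374, 2643, 2163 and 2573 FPKM in rUUO. The lowest UUO sample was above the highest Sham sample, and the 4 UUO samples differed among themselves more than the rUUO samples did. The rise from Sham to UUO was 2.11 (SE 0.32, 95% CI 1.44 to 2.79, adjusted p = 0.000137). Biglycan, the closest relative of decorin, was at 957, 850, 1064 and 858 FPKM in Sham and at 3558, 4590, 5031 and 4175 FPKM in UUO. It was the steadiest member in Sham, with a coefficient of variation of 10.8% in Sham against 54.3% for decorin, and its rise of 2.21 (SE 0.14, 95% CI 1.92 to 2.51) had the smallest adjusted p of the 9 (4.63e-08). Asporin, which differs from the other class I SLRPs in its run of aspartate residues, rose from 4.57, 2.82, 5.58 and 7.38 FPKM in Sham to 17.8, 20.8, 18.8 and 15.7 FPKM in UUO. Its groups did not overlap, and the change was 1.71 (SE 0.25, 95% CI 1.17 to 2.25, adjusted p = 0.000127).

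Lumican, a keratan sulfate SLRP, had the largest change of the SLRP members. It was at 37.9, 37.5, 94.0 and 51.6 FPKM in Sham and at 321, 453, 294 and 440 FPKM in UUO, a change of 2.83 (SE 0.26, 95% CI 2.28 to 3.38, adjusted p = 1.26e-06). Its rank among all genes outside the mitochondrial genome went from 1010 in Sham to 174 in UUO. Prolargin, which anchors basement membranes to the collagen beneath them, was at 75.6, 89.3, 142 and 100.3 FPKM in Sham and at 212, 359, 369 and 364 FPKM in UUO. UUO replicate 1 was well below the other 3 UUO samples but above every Sham sample, and the rise was 1.67 (SE 0.21, 95% CI 1.22 to 2.12, adjusted p = 2.69e-05).

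Fibromodulin was the only SLRP member not called in this comparison, and whether its change differed from theirs was not tested. It was at 26.6, 45.3, 183 and 34.9 FPKM in Sham and at 105, 166, 81.8 and 132 FPKM in UUO, so that Sham replicate 3 was above all 4 UUO samples and the other 3 Sham samples were below all of them. The difference was 1.13 (SE 0.44, 95% CI 0.20 to 2.06) with an adjusted p of 0.0679. Without Sham replicate 3 it was 1.72 with an adjusted p of 0.000187. It also passed in the joint fit of all 12 groups of the 4 populations (adjusted p = 0.0441).

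Osteoglycin, the class III SLRP, was at 31.3, 50.7, 115 and 40.2 FPKM in Sham and at 120.3, 143, 59.5 and 227 FPKM in UUO. The groups overlapped through Sham replicate 3 and UUO replicate 3. The rise of 1.23 (SE 0.38, 95% CI 0.41 to 2.04, adjusted p = 0.0267) passed only narrowly. It was lost without Sham replicate 1, 2 or 4 or UUO replicate 2 or 4 (changes of 0.99, 1.21, 1.11, 1.16 and 0.94, adjusted p between 0.0590 and 0.0909), with quantile normalization (0.94, adjusted p = 0.0857) and with no filter on low values (adjusted p = 0.0905). Without Sham replicate 3 the change was 1.60, adjusted p = 0.00291.

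Both large proteoglycans rose. Versican, which forms aggregates with hyaluronan in provisional matrix, was at 8.12, 32.4, 19.1 and 11.9 FPKM in Sham and at 157, 135, 174 and 128 FPKM in UUO. Its lowest UUO value was far above its highest Sham value, and the change of 3.15 (SE 0.38, 95% CI 2.35 to 3.95, adjusted p = 1.56e-05) was the largest of the 9 members. Versican moved from rank 3618 to rank 438 of the genes outside the mitochondrial genome. Perlecan was at 17.1, 51.0, 81.5 and 24.0 FPKM in Sham and at 202, 89.0, 124 and 235 FPKM in UUO. Sham replicate 3 came close to UUO replicate 2 without overlap, and the rise was 2.03 (SE 0.41, 95% CI 1.16 to 2.90, adjusted p = 0.00162).

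Markers of other cells moved with the stromal groups. Of 5 mesangial and juxtaglomerular markers, genes of PDGFRB-expressing cells of the glomerulus and its arteriole, 5 fell from Sham to UUO, and their summed level was 1284 to 1780 FPKM in Sham, 39.9 to 177 FPKM in UUO and 180 to 378 FPKM in rUUO. Distal tubule and collecting duct markers fell in 7 of 7 (sums of 216 to 364, 6.08 to 14.9 and 8.04 to 23.9 FPKM in Sham, UUO and rUUO), thick ascending limb markers in 4 of 5 with 1 higher (261 to 342, 41.2 to 67.6 and 59.1 to 91.7 FPKM), and podocyte markers in 4 of 5 (167 to 278, 57.3 to 118 and 108 to 157 FPKM). PT markers fell in 6 of 7 tested (88.0 to 148, 19.8 to 31.6 and 17.8 to 79.4 FPKM), endothelial markers in 4 of 8 (107 to 123, 43.7 to 67.4 and 65.4 to 126 FPKM) and macrophage markers in 1 of 7 tested (40.5 to 44.7, 26.0 to 45.1 and 25.4 to 47.0 FPKM). Over all genes tested in stromal cells, 13.0% fell and 13.4% rose from Sham to UUO.

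In the other direction, 6 of 8 fibroblast markers rose and 1 fell, with sums of 564 to 1113 FPKM in Sham, 3317 to 5178 FPKM in UUO and 1987 to 2765 FPKM in rUUO. General stromal markers rose in 4 of 8 and fell in 1, Pdgfrb itself (change of −0.88, adjusted p = 0.00502), with sums of 743 to 2003, 7442 to 12260 and 3534 to 5642 FPKM. Pdgfra and Col1a1 are in both of these lists. Mural cell markers rose in 4 of 8 and fell in 2 (341 to 971, 541 to 1234 and 544 to 708 FPKM). Lymphocyte and neutrophil markers, of which Cd3d and Ly6g were listed at 0 in every stromal sample, summed to 0.03 to 0.65 FPKM in Sham, 5.69 to 53.8 FPKM in UUO and 1.51 to 34.6 FPKM in rUUO. Of these 8, 2 passed the filter, through their level after obstruction. They were S100a8 (0 FPKM in Sham, 4.54 in UUO) and S100a9 (0.105 and 15.9 FPKM), and only S100a9 was called higher (adjusted p = 0.00732). Cd3e, Cd79a, Ms4a1 and Nkg7 averaged 0.57 FPKM or less in each stromal group. Mesothelial and urothelial markers summed to 8.22 FPKM or less in every sample, and the 1 of 5 that was tested (Krt5) differed by −0.23 (adjusted p = 0.825). Sham replicate 3, which was high in Fmod, Ogn, Hspg2, Dcn and Lum, had a fibroblast marker sum of 1113 FPKM against 564 to 694 FPKM in the other Sham samples, and a mural marker sum of 341 FPKM against 502 to 971 FPKM. The part of these markers in the members' changes was not tested.

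**Figure D2:**
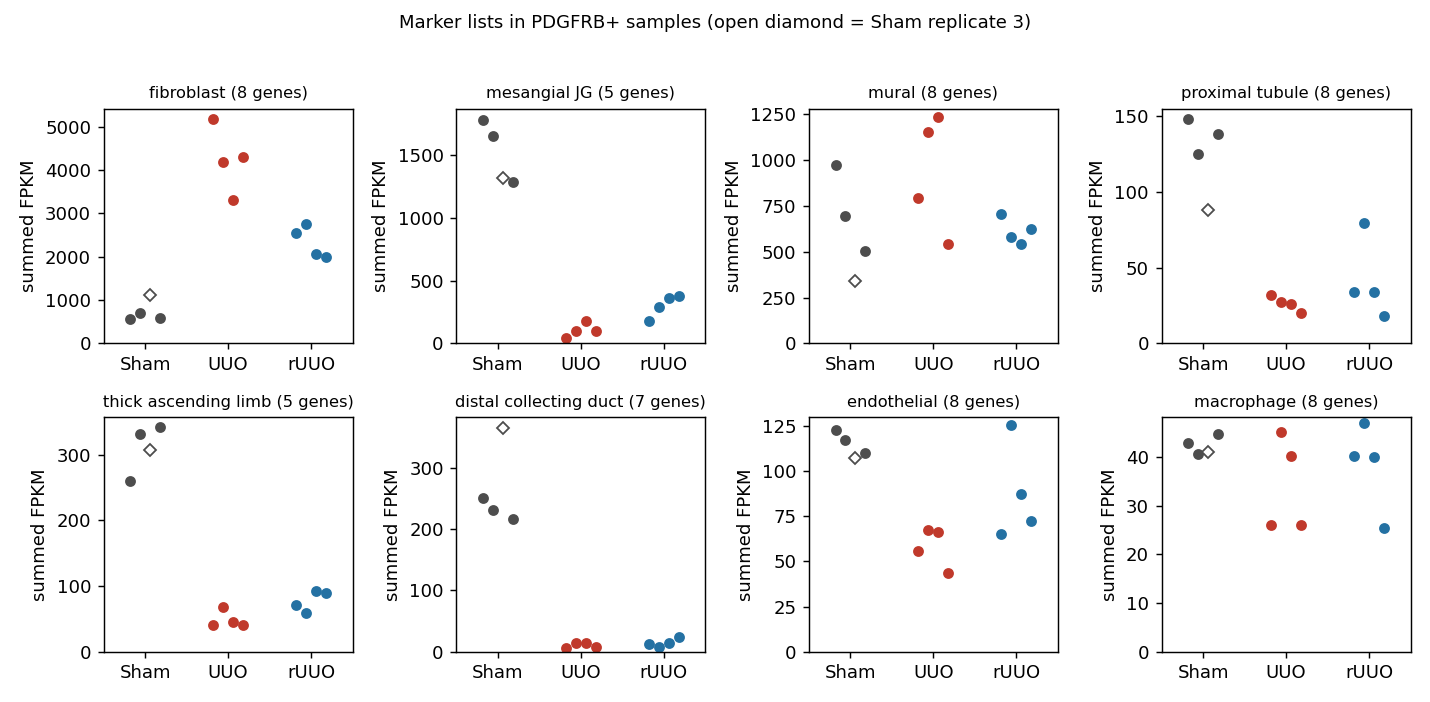
Summed FPKM (linear axis from 0) of 8 marker lists in every PDGFRB+ stromal sample by surgery, with an open diamond for Sham replicate 3. Mesangial and distal tubule lists are highest in Sham (1284 to 1780 and 216 to 364 FPKM), and the fibroblast list is highest in UUO (3317 to 5178 FPKM).

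The second comparison asked which of these levels changed once the obstruction had been reversed. From UUO to rUUO 2 of 9 members fell, Bgn and Vcan, against 1.22% of all genes that fell, and none rose, against 2.95% of all genes. The median over the members was −0.44, beside 0.19 over all genes, and all 9 members were below that all-gene median. Every rUUO sample was below every UUO sample for 4 members, Bgn, Aspn, Fmod and Vcan, as for 2.98% of all genes. UUO samples are shared with the first comparison, so the changes up and down are not independent of each other.

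Biglycan in rUUO was at 2749, 2479, 2608 and 2691 FPKM, below all UUO samples, a change of −0.71 (SE 0.14, 95% CI −1.01 to −0.41, adjusted p = 0.0114). The call held without any 1 of the 12 samples (−0.80 to −0.64), and was lost with quantile normalization (−0.37, adjusted p = 0.271), with no filter on low values (adjusted p = 0.111), and when all 12 groups of the 4 populations were fitted jointly (adjusted p = 0.134). Versican fell further, to 97.4, 29.0, 43.8 and 38.1 FPKM, a change of −1.64 (SE 0.38, 95% CI −2.44 to −0.84, adjusted p = 0.0252). rUUO replicate 1 was the highest of its group by a wide margin, and rUUO replicate 2, which had the lowest relative depth, was the lowest. The call was lost without rUUO replicate 2, 4 or 6 or UUO replicate 1 (changes of −1.42, −1.61, −1.54 and −1.61, adjusted p between 0.0624 and 0.0770), and with no filter (adjusted p = 0.104).

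The other 7 members were not called. Asporin was at 11.5, 11.2, 10.01 and 12.6 FPKM in rUUO, below all UUO samples, with a difference of −0.64 (95% CI −1.18 to −0.10, adjusted p = 0.173) that passed when the 12 groups were fitted jointly (adjusted p = 0.0427). Fibromodulin was at 52.5, 69.7, 72.9 and 50.2 FPKM, also below all UUO samples, with a difference of −0.94 (95% CI −1.87 to −0.02, adjusted p = 0.245). It passed when Sham replicate 3, which adds to the shared estimate of spread, was left out (adjusted p = 0.0401).

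Decorin was among the members not called. Its mean was 2386 ± 1065 FPKM in UUO and 2438 ± 216 FPKM in rUUO, a difference of 0.13 (95% CI −0.54 to 0.80, adjusted p = 0.860), and its interval reaches as low as −0.54. Lumican was at 375, 287, 304 and 241 FPKM in rUUO (difference −0.31, 95% CI −0.86 to 0.24). Prelp (−0.44, 95% CI −0.89 to 0.01), Hspg2 (−0.41, −1.28 to 0.46) and Ogn (−0.22, −1.04 to 0.59) likewise had intervals that included 0, with adjusted p of 0.260, 0.614 and 0.793.

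**Figure D3:**
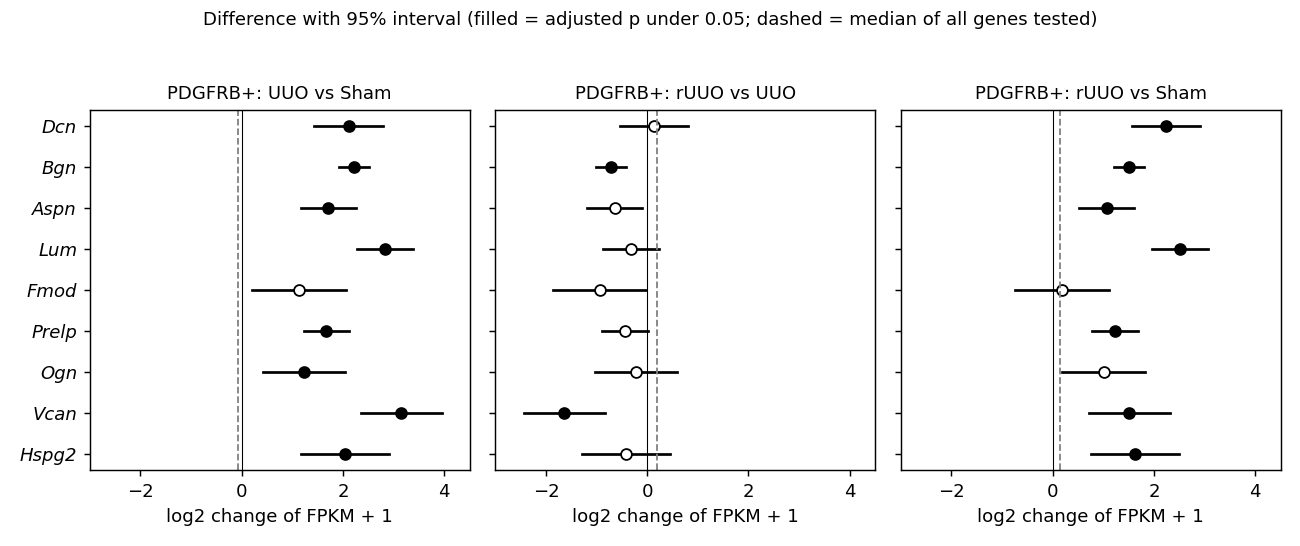
Change on the log2(FPKM + 1) scale with its 95% interval for the 9 members in stromal cells, for UUO against Sham, rUUO against UUO and rUUO against Sham, with filled points where the adjusted p is under 0.05 and a dashed line at the median of all genes. The UUO against Sham values run from 1.13 (Fmod) to 3.15 (Vcan), and in rUUO against UUO only Bgn (−0.71) and Vcan (−1.64) are filled.

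The third comparison set reversal against Sham, and shares its samples with the other two. Of the 9 members 7 were higher in rUUO than in Sham, against 11.6% of all genes, with a median of 1.50 beside 0.15 over all genes. Decorin was 2.24 higher (95% CI 1.57 to 2.92, adjusted p = 0.000127), lumican 2.51 (1.96 to 3.07, 7.74e-06) and biglycan 1.50 (1.20 to 1.80, 2.79e-06). Hspg2 was 1.62 higher (0.75 to 2.49, 0.0116), Vcan 1.51 (0.71 to 2.31, 0.0107), Prelp 1.23 (0.78 to 1.68, 0.000701) and Aspn 1.07 (0.53 to 1.61, 0.00808). The Hspg2 call was lost with no filter on low values (adjusted p = 0.0549). Fibromodulin was not called, at 0.19 (−0.74 to 1.12, adjusted p = 0.833). Without Sham replicate 3 its difference was 0.78 (adjusted p = 0.0544), and the groups did not overlap.

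Osteoglycin missed the threshold at 1.01 (0.19 to 1.82, adjusted p = 0.0883), with rUUO values of 83.5, 114, 111 and 119 FPKM, and passed without Sham replicate 3 (1.38, adjusted p = 0.0115) or without UUO replicate 3 (adjusted p = 0.0442). Every rUUO sample was above every Sham sample for 6 of 9 members, as for 16.1% of all genes. Without Sham replicate 3 this held for 8 of 9, all but Vcan, and the matching share of all genes was not computed. The perlecan samples in rUUO were at 157, 112, 84.2 and 112 FPKM, the lowest just above Sham replicate 3. Prelp was at 234, 248, 250 and 206 FPKM, clear of every Sham sample.

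The scale set the balance of all genes but not the sign of the members' median. A single member did change sign, Fmod in rUUO against Sham. Its difference of 0.19 became −0.03 after rescaling without the mitochondrial genes and −0.05 after quantile normalization, and it was not called in any of these. Of the genes called between rUUO and Sham 67.6% were higher, 49.1% after rescaling without the mitochondrial genes (all-gene median −0.07) and 51.5% after quantile normalization. For UUO against Sham the share was 50.8%, 37.3% without the mitochondrial genes (all-gene median −0.29) and 50.8% with quantile normalization, and for rUUO against UUO it was 70.8%, 65.5% and 53.3%. Over the same 3 scalings the members' median was 2.03, 1.87 and 1.66 for UUO against Sham, −0.44, −0.49 and −0.34 for rUUO against UUO, and 1.50, 1.27 and 1.28 for rUUO against Sham.

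Because decorin and biglycan dominate the sum, their balance set the composition of the proteoglycan transcripts. Biglycan made up 52.6 ± 10.6% of the summed FPKM of the 9 members in Sham, 54.8 ± 9.32% in UUO and 44.2 ± 2.03% in rUUO. Decorin made up 29.1 ± 6.49%, 29.0 ± 8.81% and 40.9 ± 2.86%. The ratio of decorin to biglycan was 0.329, 0.549, 0.951 and 0.544 in the Sham samples, 0.506, 0.542, 0.281 and 0.919 in UUO and 0.864, 1.07, 0.830 and 0.956 in rUUO. The rUUO ratios lay in the upper part of the range, and they overlapped both other groups through Sham replicate 3 and UUO replicate 4.

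Lumican and fibromodulin, the class II pair that share a collagen-binding region, were in different proportion in each group. Their ratio was 1.43, 0.828, 0.513 and 1.48 in Sham, 3.06, 2.74, 3.60 and 3.33 in UUO and 7.13, 4.12, 4.17 and 4.80 in rUUO. The 3 groups did not overlap in this ratio, which is given as a description, since it was chosen after the values were seen. Exact permutation tests gave each of the 3 comparisons the smallest p possible at this group size (0.0286). After Benjamini-Hochberg adjustment over 12 ratio tests it was 0.114, above the threshold. Lumican was 2.90% of the summed members in Sham, 4.70% in UUO and 5.07% in rUUO, whereas fibromodulin was 3.38%, 1.51% and 1.04%. Vcan was 0.998%, 1.92% and 0.870%, Hspg2 2.20%, 2.07% and 1.95%, and Prelp 5.54%, 4.05% and 3.94%, with no test of these shares.

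The spread between samples also differed between groups. In rUUO the coefficient of variation was 4.45% for Bgn, 8.85% for Dcn, 8.58% for Prelp, 9.33% for Aspn and 14.9% for Ogn, and 59.3% for Vcan. In Sham it was 102% for Fmod, 67.5% for Hspg2 and 64.2% for Ogn, in each case with Sham replicate 3 as the highest sample. In UUO it ran from 11.7% (Aspn) to 50.5% (Ogn).

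The other sorted populations served to place the members in the kidney. In Sham, 9 of 9 members differed between stromal and endothelial cells (24.2% of all genes did), 8 of them higher in stromal cells. Stromal cells were above macrophages for 9 of 9 (48.1% of genes differed) and above PT cells for 9 of 9 (67.6% of genes differed, with an all-gene median of 1.06). Aspn, Vcan and Fmod passed the filter in these fits only through the stromal samples, averaging 0.088, 0.829 and 0.942 FPKM over the other Sham samples, so that they had to differ. Of the other 6 members, 5 were higher and 1 lower in stromal than in endothelial cells, and 6 of 6 were higher than in macrophages and in PT cells. Against endothelial cells decorin differed most, by 5.43 on the log2 scale (adjusted p = 1.43e-08), and biglycan differed by 2.74. The differences from macrophages ran from 2.44 (Aspn) to 5.78 (Bgn), and those from PT cells from 2.49 (Aspn) to 6.24 (Bgn).

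Perlecan was the exception in endothelial cells. It was at 162, 172, 123 and 82.2 FPKM in the Sham endothelial samples, all above the highest stromal Sham sample (81.5 FPKM), and stromal cells were lower by −1.81 (95% CI −2.71 to −0.90, adjusted p = 0.00407). In UUO the endothelial mean was 159 ± 37.7 FPKM (n = 3) and in rUUO 158 ± 37.8 FPKM, so the endothelial mean was 311% of the stromal mean in Sham, 97.9% in UUO and 136% in rUUO. Biglycan was the next member in endothelial cells, at 139 ± 20.3 FPKM in Sham, 158 ± 40.6 FPKM in UUO and 151 ± 18.2 FPKM in rUUO, which was 14.9%, 3.65% and 5.75% of the stromal mean.

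**Figure D4:**
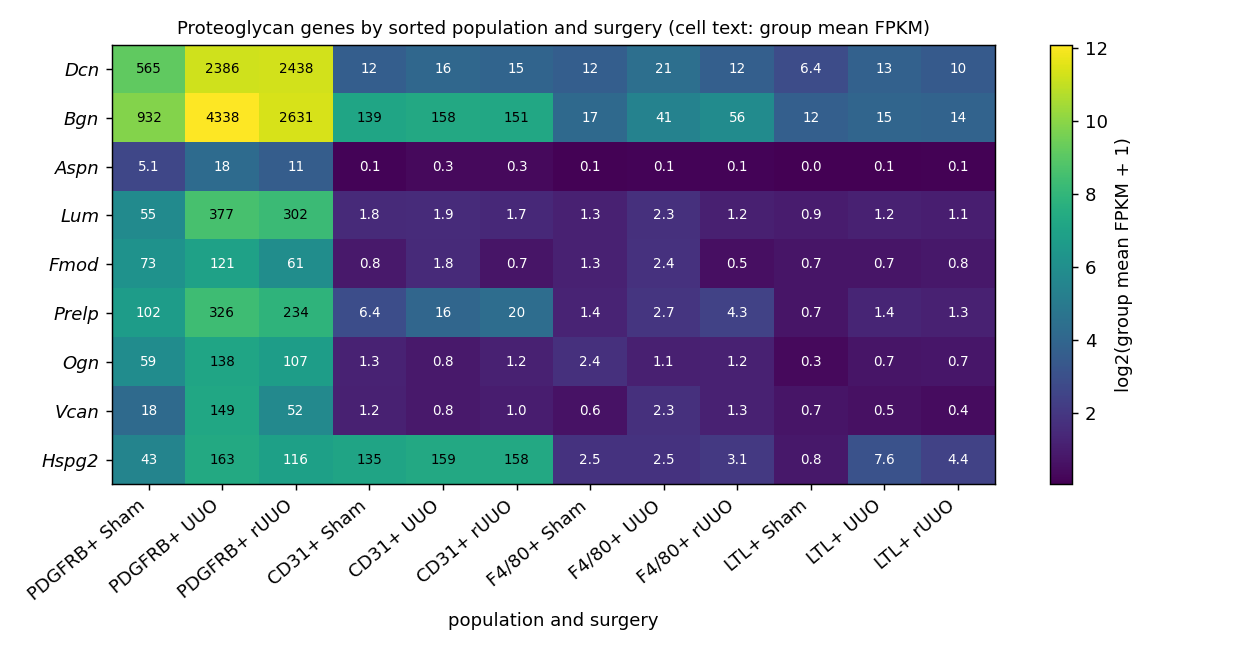
Group mean FPKM (printed in each cell, with colour for log2 of the mean plus 1) of the 9 members in the 12 groups of sorted cells. The stromal columns are highest for each member but Hspg2, whose Sham endothelial mean of 135 FPKM is above the stromal mean of 43.4 FPKM.

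Outside the stromal cells few members were called, which does not show that the others were unchanged. In endothelial cells 8 members were tested, without Aspn, and 0 of 8 were called by limma between UUO and Sham (1.98% of all genes called), 0 of 8 between rUUO and UUO (0.0597%) and 1 of 8 between rUUO and Sham (1.77%). At an unadjusted p under 0.05 the counts were 1, 0 and 1. Prelp was the 1 member called, at 5.30, 7.74, 5.35 and 7.11 FPKM in Sham endothelial samples and 22.3, 16.5, 29.3 and 11.1 FPKM in rUUO, with no overlap and a change of 1.43 (SE 0.30, 95% CI 0.78 to 2.08, adjusted p = 0.0238). In UUO it was at 12.7, 12.03 and 21.8 FPKM (change from Sham 1.13, adjusted p = 0.105, or 0.0273 in the joint fit of 12 groups). The rUUO call was lost without rUUO replicate 1, 2 or 4 or Sham replicate 1 or 3 (changes of 1.35, 1.49, 1.22, 1.36 and 1.36, adjusted p between 0.0526 and 0.0974), with no filter (0.0878) and with quantile normalization (0.0558). Mural marker sums in the endothelial samples were 136 to 175 FPKM in Sham, 217 to 245 FPKM in UUO and 249 to 347 FPKM in rUUO, and their part in the Prelp change was not tested.

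In macrophages 8 members were tested and 0 of 8 were called between UUO and Sham (4.99% of all genes) and between rUUO and UUO, where limma called 0% of all genes at an adjusted p under 0.05, 945 genes having an unadjusted p under 0.05. Between rUUO and Sham 1 of 8 was called (3.44%). At an unadjusted p under 0.05 the member counts were 3, 0 and 2. The members' median difference between UUO and Sham macrophages was 0.62, beside −0.03 over all genes. Biglycan was the member called, at 23.8, 17.4, 20.4 and 7.28 FPKM in Sham and 70.0, 49.7 and 49.4 FPKM in rUUO, a change of 1.75 (SE 0.40, 95% CI 0.89 to 2.60, adjusted p = 0.0285). In UUO it was at 23.9, 75.7, 29.1 and 34.1 FPKM, a difference from Sham of 1.16 (adjusted p = 0.0933, or 0.00834 in the joint fit). The rUUO call was lost without rUUO replicate 1, 4 or 6 or Sham replicate 2 or 4 (changes of 1.58, 1.83, 1.83, 1.79 and 1.40, adjusted p between 0.0568 and 0.126), with no filter (0.109) and after rescaling without mitochondrial genes (0.0521). The 8 stromal markers summed to 14.01 to 50.5 FPKM in the Sham macrophage samples, 40.1 to 82.3 in UUO and 38.4 to 99.6 in rUUO, highest in rUUO replicate 1, which was also the highest in Bgn. As a share of the stromal mean, Bgn in rUUO macrophages was 2.14%, Dcn 0.492% and Col1a1 1.06%. The part of stromal RNA in these values was not tested.

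In PT cells 5 members passed the filter (Dcn, Bgn, Lum, Prelp and Hspg2), and 2 of 5 rose from Sham to UUO. Of the 11416 genes tested there, 3186 rose and 561 fell, 32.8% being called in either direction. The members' median change was 0.49, below the all-gene median of 0.51. From UUO to rUUO 0 of 5 were called by limma (3.83% of genes, and 0 of 5 at an unadjusted p under 0.05). Against Sham 1 of 5 was higher in rUUO, where 7.46% of genes were called in either direction and 744 genes were higher. Perlecan was at 0.54, 1.02 and 0.88 FPKM in Sham, at 8.45, 11.3, 6.44 and 4.35 FPKM in UUO and at 6.55, 3.47 and 3.24 FPKM in rUUO. Its Sham mean was 0.813 FPKM, so it passed the filter through its level in UUO and rUUO. A rise was therefore built into its being tested. All UUO and rUUO samples were above all Sham samples, a separation not counted over all genes here, with changes of 2.19 (SE 0.33, 95% CI 1.48 to 2.91, adjusted p = 0.000228) and 1.54 (0.78 to 2.30, adjusted p = 0.0159). Without UUO replicate 2, whose title holds both Sham and UUO, the first was 2.00 (adjusted p = 0.000893). The second was lost without rUUO replicate 2 (1.27, adjusted p = 0.0786) or Sham replicate 1 (1.42, adjusted p = 0.0635), with no filter (0.0660) and with quantile normalization (1.20, adjusted p = 0.0799). Perlecan in UUO PT samples was 4.69% of the stromal mean, while Col1a1, Col1a2, Col3a1, Lum and Dcn were between 0.248% and 0.546%.

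Decorin in PT cells was at 5.64, 7.17 and 6.25 FPKM in Sham and 14.9, 10.3, 17.7 and 9.25 FPKM in UUO, a change of 0.89 (95% CI 0.32 to 1.47, adjusted p = 0.0211). The call was lost without Sham replicate 1 or 4 or UUO replicate 1 or 3 (changes of 0.82, 0.88, 0.82 and 0.74, adjusted p between 0.0524 and 0.0726), after rescaling without mitochondrial genes (0.67, adjusted p = 0.101), with quantile normalization (0.37, adjusted p = 0.370) and in the joint fit (0.0698). In the same PT samples, distal tubule and collecting duct markers summed to 45.3 to 46.6 FPKM in Sham, 314 to 440 FPKM in UUO and 153 to 220 FPKM in rUUO, and thick ascending limb markers to 21.1 to 25.2, 158 to 198 and 52.7 to 142 FPKM. Mural marker sums were 4.33 to 6.57, 19.6 to 37.9 and 25.4 to 42.6 FPKM, stromal marker sums 16.0 to 23.5, 19.2 to 45.4 and 24.4 to 32.3 FPKM, endothelial marker sums 12.7 to 21.04, 15.1 to 38.3 and 20.2 to 30.2 FPKM, and PT marker sums 4837 to 5858, 1957 to 2913 and 2950 to 3191 FPKM. The part of these cells in the Hspg2 and Dcn changes was not tested.

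Whether the rise on obstruction differed between populations was tested directly, as the stromal change minus that of another population. Aspn and Vcan passed the filter in this fit only through the stromal samples (0.135 and 0.997 FPKM on average over all other samples), so counts are also given over the other 7 members. Against endothelial cells 6 of 9 members rose more in stromal cells (6.55% of all genes did), with differences of 3.29 for Vcan, 2.75 for Lum, 2.04 for Bgn, 1.76 for Hspg2, 1.67 for Dcn and 1.52 for Aspn, or 4 of 7 without Aspn and Vcan. Ogn (1.52, adjusted p = 0.0768), Fmod (0.56) and Prelp (0.54) were not called. The Hspg2 difference (adjusted p = 0.0285) was lost without any 1 of 8 libraries, which were endothelial Sham replicates 1 and 2 and UUO replicates 2 and 4 and stromal Sham replicates 1 and 4 and UUO replicates 1 and 4 (1.41 to 1.70, adjusted p between 0.0567 and 0.0888), with no filter (0.0597), with a pseudocount of 0.1 (0.0662) and with quantile normalization (0.0552). The Dcn difference (adjusted p = 0.0206) was lost without endothelial Sham replicate 2 or UUO replicate 2 or stromal Sham replicate 1 or UUO replicate 4 (1.40 to 1.43, adjusted p between 0.0558 and 0.0746). Ogn passed without stromal Sham replicate 3 or UUO replicate 3, or macrophage Sham replicate 3, which shares the fit (1.90, 1.87 and 1.52, adjusted p = 0.0204, 0.0223 and 0.0257).

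Against macrophages 4 of 9 members rose more in stromal cells (7.88% of all genes), Lum by 2.29, Vcan by 2.18, Hspg2 by 1.95 and Aspn by 1.66, or 2 of 7 without Aspn and Vcan. Prelp (1.07, adjusted p = 0.0585), Ogn (1.45, 0.0691), Bgn (1.05, 0.0705) and Dcn (1.15, 0.0997) did not pass, and each passed without at least 1 single library. Those libraries were macrophage Sham replicate 4 for all of them (adjusted p between 0.00838 and 0.0261), macrophage UUO replicate 2 for Bgn and Prelp (0.00782 and 0.0248), stromal Sham replicate 3 for Dcn, Prelp and Ogn (0.0168 to 0.0306), stromal UUO replicate 3 for Dcn and Ogn (0.0498 and 0.0196) and stromal UUO replicate 1 for Prelp (0.0279).

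Against PT cells 5 of 9 members rose more in stromal cells (6.16% of all genes, with an all-gene median of −0.51), Vcan by 3.25, Lum by 2.64, Bgn by 1.97, Aspn by 1.70 and Prelp by 1.18, or 3 of 7 without Aspn and Vcan. For perlecan the stromal and PT changes differed by −0.16 (95% CI −1.28 to 0.96, adjusted p = 0.860), an interval that leaves room for a difference of up to 1.28 in favour of PT cells. The Prelp difference (adjusted p = 0.0278) was lost without stromal Sham replicate 1 or 2 or UUO replicate 4 or PT Sham replicate 4 or UUO replicate 4 (0.97 to 1.17, adjusted p between 0.0505 and 0.0783), with a pseudocount of 0.1 (0.83, adjusted p = 0.259) and after rescaling without mitochondrial genes (0.99, adjusted p = 0.143). Dcn (1.22, adjusted p = 0.0615) passed without stromal Sham replicate 3 or UUO replicate 3, PT UUO replicate 3 or macrophage Sham replicate 4 (0.0147 to 0.0445) and with quantile normalization (0.0113), and Fmod (1.11, adjusted p = 0.191) passed without stromal Sham replicate 3 (1.70, 0.0198). Lum passed against all 3 populations under each setting tried, whereas Aspn lost its 3 calls with a pseudocount of 0.1 (adjusted p = 0.325 against endothelial cells, 0.127 against macrophages and 0.0577 against PT cells), as did Vcan against macrophages (0.200).

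The rest of the proteoglycan pathway was described from 9 lists of 108 genes, of which 78 passed the filter in stromal cells. From Sham to UUO 39 rose and 6 fell (13.4% and 13.0% of all genes). Of the 78, 9 averaged under 1 FPKM in Sham but not in UUO, 8 of them among the 39 that rose, and 1 averaged under 1 FPKM in UUO but not in Sham. Epyc, Csgalnact1, Hs6st2, Has1, Has2, Hmmr and Tnfaip6, named below, are among the 8. They passed the filter through their level after obstruction, so that a rise was built into their being tested. From UUO to rUUO 2 rose and 4 fell (2.95% and 1.22% of all genes), and against Sham 31 were higher and 4 lower in rUUO (11.6% and 5.57% of all genes).

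Among the other SLRPs 6 of 12 were tested and 2 rose, Epyc (epiphycan, the chromosome 10 neighbour of Lum) from 0.445 to 9.66 FPKM (change 2.84, adjusted p = 0.000205) and Tsku (tsukushi, which binds growth factors) from 2.65 to 15.6 FPKM (2.31, adjusted p = 0.000280). Other extracellular proteoglycans, 7 of 12 tested, included 2 that rose, Prg4 (lubricin) from 1.48 to 54.6 FPKM (4.46, adjusted p = 0.000391) and Col15a1 (a collagen of the basement membrane zone that carries chondroitin sulfate) from 60.1 to 484 FPKM (3.07, adjusted p = 2.23e-06). Col15a1 stayed at 500.5 FPKM in rUUO, while Agrn was the 1 gene of this list that rose from UUO to rUUO.

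Cell surface proteoglycans went both ways, with 4 of 10 tested higher and 2 lower. The glypican Gpc1 rose from 2.77 to 12.8 FPKM (1.87, adjusted p = 3.46e-05) and Gpc6 from 52.3 to 130.3 FPKM (1.24, adjusted p = 0.000407). Cspg4 (NG2, a pericyte marker) fell from 57.2 to 14.7 FPKM (−1.96, adjusted p = 3.93e-05) and the syndecan Sdc4 from 144 to 84.3 FPKM (−0.85, adjusted p = 0.0177).

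Enzymes that build the chains were split by chain type. Linker enzymes, which join any chain to a core, rose in 2 of 7, B4galt7 (1.29, adjusted p = 0.00923) and Xylt2 (1.23, adjusted p = 0.00995). Chondroitin and dermatan sulfate enzymes, which modify the chains carried by decorin, biglycan and versican, rose in 9 of 12 tested and fell in none. Csgalnact1, which starts chondroitin chains, rose from 0.990 to 16.4 FPKM (3.09, adjusted p = 0.000433), but passed the filter through its level in UUO. Chst11, a chondroitin sulfotransferase, rose from 3.54 to 16.2 FPKM (1.78, adjusted p = 0.00141). Csgalnact1 fell to 4.29 FPKM in rUUO (−2.25 against UUO, adjusted p = 0.0284).

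Heparan sulfate enzymes, which act on the chains of perlecan, rose in 6 of 13 tested and fell in 1. Hs6st2 rose from 0.947 to 7.11 FPKM (2.03, adjusted p = 0.000772) and Hs3st1 from 2.84 to 10.6 FPKM (1.79, adjusted p = 0.0162). Hs3st3b1, another heparan sulfotransferase, fell from 118 to 1.69 FPKM (−5.49, adjusted p = 1.08e-08) and was at 5.06 FPKM in rUUO, a rise of 1.13 from UUO (adjusted p = 0.0306). Keratan sulfate enzymes, which serve lumican and fibromodulin, rose in 1 of 5 tested (B4galt1, from 23.1 to 119 FPKM, 2.33, adjusted p = 2.19e-07) and fell in 1 (B3gnt2, from 60.7 to 28.3 FPKM, −1.27, adjusted p = 0.0264). Both of these act on other glycans as well.

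Of 11 hyaluronan and link genes, the partners of versican, 5 passed the filter and all 5 rose. Of these, 4 (Has1, Has2, Hmmr and Tnfaip6) averaged under 1 FPKM in Sham and passed through their level in UUO, so that a rise was built into their being tested, while Has3, at 1.60 FPKM in Sham and 0.535 FPKM in UUO, was not tested. Cd44, the hyaluronan receptor, was above 1 FPKM in both groups and rose from 6.95 to 41.7 FPKM (2.45, adjusted p = 1.87e-06). Tnfaip6, which transfers protein chains onto hyaluronan, rose from 0.722 to 16.4 FPKM (3.20, adjusted p = 0.000375) and the hyaluronan synthase Has2 from 0.330 to 8.51 FPKM (2.81, adjusted p = 1.67e-05). Has2 fell to 1.72 FPKM in rUUO (−1.80, adjusted p = 0.00964), the same direction as versican.

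Of the turnover genes 8 of 13 tested rose and 2 fell. Sulf1, which removes sulfate from heparan sulfate outside the cell, rose from 12.1 to 154 FPKM (3.57, adjusted p = 5.46e-08), and Bmp1, a protease that trims the propeptide of biglycan and osteoglycin, from 8.37 to 78.4 FPKM (3.16, adjusted p = 7.26e-07). The versican-cleaving proteases Adamts5 (185 to 53.3 FPKM, −1.85, adjusted p = 0.000120) and Adamts1 (118 to 44.2 FPKM, −1.46, adjusted p = 0.000260) fell, while Adamts4 (2.06 to 21.3 FPKM, 2.87, adjusted p = 8.80e-06) and Adamts15 (4.62 to 18.6 FPKM, 1.71, adjusted p = 0.000751), which also cleave versican and were named after their values were seen, rose. From UUO to rUUO, Bmp1 (−1.07, adjusted p = 0.0390) and Adamts5 (−1.04, adjusted p = 0.0447) fell.

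**Figure D5:**
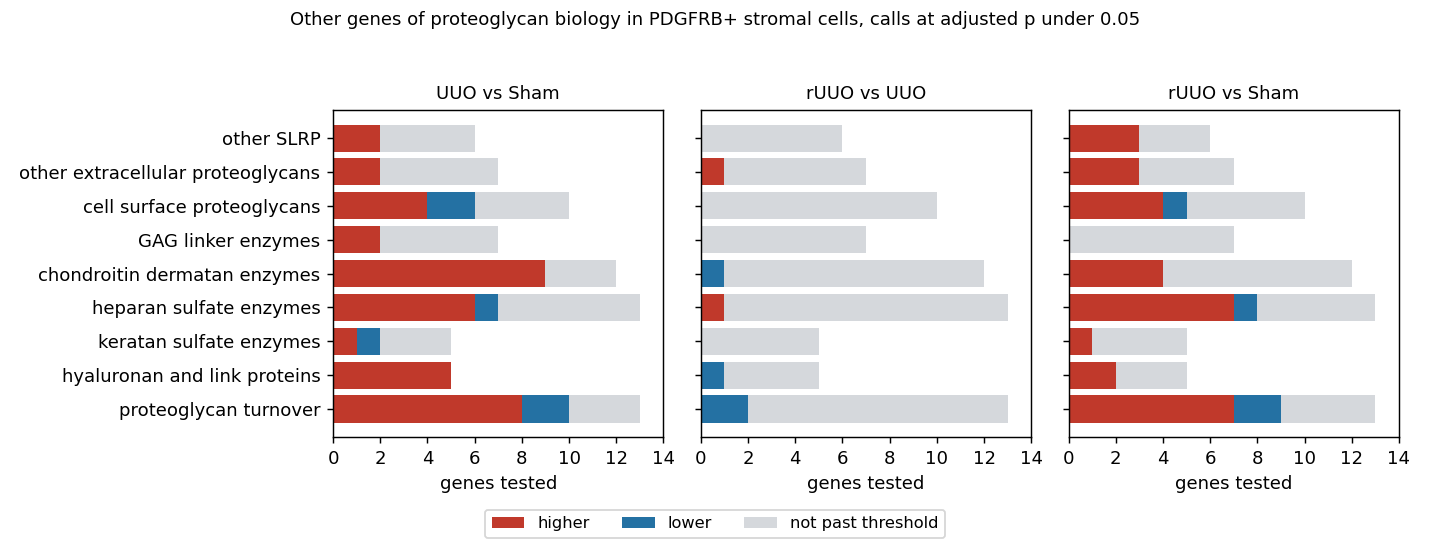
Number of tested genes of each pathway list in stromal cells (stacked bars, 1 panel per comparison) that were higher, lower or not past an adjusted p of 0.05. In UUO against Sham the chondroitin and dermatan bar is mostly higher (9 of 12), and of the 5 tested hyaluronan genes 4 were under 1 FPKM in Sham, and in rUUO against UUO most genes are not past the threshold (72 of 78).

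Across the 12 stromal samples each member was also set beside the 9017 genes that averaged 5 FPKM or more, by Pearson's r of log2 values, as a description in which all points share the same libraries and the same group differences. The genes most like decorin were Islr (0.989), Slc43a3 (0.977) and Serping1 (0.975). For biglycan they were Fstl1 (0.983), Mmp14 (0.983) and Pim1 (0.981), and for asporin Papss2 (0.966), which encodes an enzyme that makes the sulfate donor, Zc3hav1l (0.961) and Kdelr3 (0.960). Lumican was most like Sorcs2 (0.988), Olfml3 (0.985) and Ctsk (0.983), prolargin most like Lrp4 (0.978), Nlgn2 (0.977) and Fxyd6 (0.973), and osteoglycin most like Rassf2 (0.960), Ms4a4d (0.953) and Serpinf1 (0.949). Versican was most like Copb2 (0.958), Adcyap1r1 (0.954) and Ddb1 (0.944), and perlecan most like the gap junction gene Gja1 (0.960), Htra3 (0.954) and Socs3 (0.943).

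Fibromodulin had no gene above 0.888 (Cilp, then Cpxm2 at 0.884 and Med13l at 0.864). Within the members, decorin was nearest to lumican (0.955), biglycan to prolargin (0.954), asporin to biglycan (0.939), osteoglycin to decorin (0.893), versican to biglycan (0.889) and perlecan to decorin (0.881). Fibromodulin was nearest to osteoglycin (0.791), and it was the least like member for 7 of the other 8.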

How the data were processed

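RNA of sorted mouse kidney cells was turned into amplified cDNA (Ovation RNA-Seq System V2) for Illumina HiSeq sequencing. The authors deposited 1 table of FPKM per gene for the whole series, rounded to 2 decimals, on the mm10 build, and the submitters' processing notes name FastQC, Bowtie2, RSEM and DESeq2, without versions. FPKM are normalized to the library's total, so a few abundant genes shift all others. Of 46 value columns 44 were used, since 2 columns share the same name, and no column was analysed here for LTL+ Sham replicate 3. No columns held identical values. Samples were grouped by the labels' cell type and surgery. The title of LTL+ UUO replicate 2 holds both Sham and UUO, and it was placed in UUO by its treatment label. The series' design text gives 4 mice per group, but the labels do not tie a sample to a mouse, so p-values measure the spread between these samples.

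Values were analysed as log2(FPKM + 1) with limma 3.58.1 (R 4.3.3; lmFit and eBayes with trend), in 1 fit per population over Sham, UUO and rUUO, in 1 fit of all Sham samples between populations, and in 1 fit of all 12 groups for differences between populations. Genes averaging 1 FPKM or more across the fitted samples were tested, two-sided, with Benjamini-Hochberg adjustment over all of them and a threshold of 0.05. The scripts were tested on simulated data with known changes. The 9 members, the pathway lists and the marker lists were chosen with earlier results of these data known. Named genes were the 9 members, the 3 genes most like each member, and from each pathway list up to 2 genes with the largest rise and 2 with the largest fall among those called between UUO and Sham. Genes of a list named for a change from UUO to rUUO were chosen after their values were seen. Alternatives were a pseudocount of 0.1, no filter, rescaling without the 37 mitochondrial genes, quantile normalization, the replicate number as a block, the joint fit of 12 groups, the surgery and replicate number as a random block for the differences between populations, and leaving out each sample. Gene positions are from GENCODE M21 (GRCm38), where 9 of 9 members had the coordinates of the table, and promoters are from RefSeq. Other steps used Python 3.11.15 with scipy 1.17.1, pandas 2.3.3, numpy 2.4.6 and, for the plots, matplotlib 3.10.9.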

Additional observations from a re-analysis of the deposited data

Results flagged for a closer look

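Among 72 groups of 4 samples tested for a sample far from the others, 3 held one, and chance gives about 1 in 20 groups. Gaps are given as a share of the group's range on the log2(FPKM + 1) scale. Prelp in stromal UUO replicate 1, at 212.16 FPKM, lay below the other 3 UUO samples (359 to 369 FPKM), with a gap of 0.950 of the range. Lum in endothelial Sham replicate 2 was at 3.40 FPKM with a gap of 0.893 of the range, and Fmod in macrophage Sham replicate 3 was at 4.00 FPKM with a gap of 0.847. Macrophage Sham replicate 3 carries the same replicate number as the stromal Sham sample that was high in Fmod, and the labels do not say whether both came from 1 mouse.

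The change from Sham to UUO differed between stromal cells and another population in 15 tests of the difference itself. Stromal minus endothelial changes that passed were 1.67 for Dcn, 2.04 for Bgn, 1.52 for Aspn, 2.75 for Lum, 3.29 for Vcan and 1.76 for Hspg2. Stromal minus macrophage changes that passed were 1.66 for Aspn, 2.29 for Lum, 2.18 for Vcan and 1.95 for Hspg2. Stromal minus PT changes that passed were 1.97 for Bgn, 1.70 for Aspn, 2.64 for Lum, 1.18 for Prelp and 3.25 for Vcan.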

How the results depend on the processing

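Over 3003 alternative values of the members' changes, 75 (in 32 results) lay on the other side of 0, and 0 of these 75 were called in either setting. In stromal cells they were Dcn in rUUO against UUO without UUO replicate 3 (−0.09 in place of 0.13), Ogn there without UUO replicate 4 (0.07 in place of −0.22), Fmod in rUUO against Sham with quantile normalization (−0.05), after rescaling without mitochondrial genes (−0.03) and without Sham replicate 1 or 4 (−0.13 and −0.01, in place of 0.19), the stromal minus macrophage difference of Fmod with a pseudocount of 0.1 (−0.05), and the stromal minus PT difference of Hspg2 with quantile normalization (0.16) and without 1 of 3 samples (0.03 to 0.22, in place of −0.16). Of the 3003 values 2899 stayed on their side of the threshold, 74 lost a call and 30 gained one, and of 738 alternative values of the counts of genes and members 626 stayed within 1.5 times. The cause of the other changes was not tested. In the joint fit of 12 groups the genes called became 423 in place of 265 (endothelial UUO against Sham), 452 of 237 (rUUO against Sham) and 67 of 8 (rUUO against UUO), 1018 of 665, 753 of 459 and 35 of 0 in macrophages in the same order, and 973 of 585 in stromal rUUO against UUO. Members called became 1 of 0 in endothelial and in macrophage UUO against Sham, 2 of 1 in macrophage rUUO against Sham and 1 of 2 in PT UUO against Sham. With no filter the genes called were 127, 116 and 0 in endothelial cells, 364, 303 and 1 in macrophages, 484 (of 852) and 203 (of 437) in PT rUUO against Sham and against UUO, and 200 in stromal rUUO against UUO, and the members called were 0 in rUUO against Sham in all 3 other populations and 0 in stromal rUUO against UUO. Quantile normalization gave 2435 genes in place of 3747 in PT UUO against Sham, 360 in stromal and 2 in macrophage rUUO against UUO, and 6316 in place of 9602 between Sham stromal and PT cells, with 0 members in endothelial and PT rUUO against Sham, 1 in PT UUO against Sham and 1 in stromal rUUO against UUO. Rescaling without mitochondrial genes gave 249 genes in PT rUUO against UUO, 0 members in macrophage rUUO against Sham and 1 in PT UUO against Sham. A pseudocount of 0.1 gave 4 genes in endothelial and 265 in PT rUUO against UUO, and 2 in place of 4 members differing between stromal cells and macrophages and 3 in place of 5 between stromal and PT cells.

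The replicate numbers did not pair the samples, since correlations of same-numbered deviations were between −0.062 and 0.02 in stromal cells and at most 0.117 anywhere. With the replicate block the genes called were 1574 in stromal rUUO against Sham and 116 in rUUO against UUO, 101, 68 and 0 in endothelial cells, 346 and 115 in macrophage UUO and rUUO against Sham, and 160 in PT rUUO against UUO. Members called with the block were 0 in stromal rUUO against UUO (Bgn −0.65, adjusted p = 0.0992, and Vcan −1.46, adjusted p = 0.154), 0 in endothelial and macrophage rUUO against Sham and 1 in PT UUO against Sham, and in stromal cells the block also lost Ogn in UUO against Sham (adjusted p = 0.0575) and Aspn in rUUO against Sham (1.06, adjusted p = 0.0591). With samples of 1 surgery and replicate number across populations treated as 1 block, which the labels do not tie to a mouse, their correlation was 0.0342.

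Leaving out 1 sample at a time gave 146 to 231 genes in endothelial UUO against Sham, 119 to 336 in rUUO against Sham with 0 to 1 members, and 3 to 10 in rUUO against UUO. In macrophages it gave 272 to 736, 207 to 653 with 0 to 1 members, and 0 to 15. In PT cells it gave 1 to 2 members in UUO against Sham, 566 to 810 genes and 0 to 1 members in rUUO against Sham, and 121 to 469 genes in rUUO against UUO. In stromal cells it gave 7 to 9 members in UUO against Sham, 7 to 8 in rUUO against Sham, and 289 to 768 genes and 1 to 3 members in rUUO against UUO. Members differing between stromal cells and macrophages were 4 to 8. Depth is unknown here, so no counting error could be set beside low values such as those of Aspn.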
